A study of Homo sapiens with 6 samples.

Results

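Collagen chains are folded in the endoplasmic reticulum (ER), modified there by hydroxylases, and joined outside the cell by crosslinks. The genes followed here encode the enzymes of these steps and a chaperone: *SERPINH1*, *P4HA1*, *P4HA2*, *P3H1*, *PLOD1*, *PLOD2*, *PLOD3*, *LOX*, *LOXL1*, and *LOXL2*. They were taken by gene name and made up 10 of the 60623 genes in the count table, and the expression filter kept all 10. They were chosen by function, but with the log2 fold changes and test results of this comparison already known, so that the changes of the members between conditions are given as a description, without p-values. Prolyl 4-hydroxylases make the 4-hydroxyproline that keeps the collagen helix stable at body temperature, and the prolyl 3-hydroxylase complex modifies a few further prolines. Lysyl hydroxylases prepare lysines for glycosylation and crosslinking, SERPINH1 (HSP47) binds the folded helix on its way out of the ER, and the secreted lysyl oxidases start the covalent crosslinks. In cartilage these steps give the type 2 collagen network its strength.

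The cells were TC28a2, an immortalized human chondrocyte line, treated for 24 hours with 2 μM mocetinostat, which inhibits histone deacetylases (HDACs), mainly those of class I, or with its solvent DMSO. Each condition had 3 samples, which the study describes as independent experiments, and total RNA was sequenced as single reads. The results are those of 1 line at 1 dose and 1 time. Because RNA was measured in bulk, fewer cells of a kind and less RNA per cell cannot be told apart. Total counts were between 4873426 and 11031132 in DMSO-treated samples and between 1619344 and 5089542 in mocetinostat-treated samples. Of 10 chondrocyte markers, *SOX9* alone exceeded 100 CPM (counts scaled to a common library total) with DMSO, at 106.4 CPM, and the other 9 had means under 6 CPM; *SOX6* and *COL9A1* held 3 counts or fewer in each DMSO-treated sample. The summed level of these 10 genes was between 116.6 and 141.2 CPM with DMSO and between 260.7 and 301.5 CPM with mocetinostat. Markers of leukocytes, macrophages, endothelium, smooth muscle, and epithelium (6 genes) summed to between 4.61 and 8.75 CPM with DMSO and to between 15.7 and 26.0 CPM with mocetinostat; *CD68* held 2 counts or fewer in each sample, and the part of these markers in the results below was not tested.

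The DNA just before the transcription start is shown for 4 members, because they are known targets of the heat-shock factor HSF1 (*SERPINH1*) or of the hypoxia-inducible factors, HIFs (the other 3), and span the range of responses: *SERPINH1* fell, *LOX* rose, and *P4HA1* and *PLOD2* did not pass the test. Each window is the 250 bases before the RefSeq start (GRCh38.p14), written 5′ to 3′ on the strand of the gene: chr11:75562003-75562252 (+) for *SERPINH1*, chr5:122078260-122078509 (-) for *LOX*, chr10:73096867-73097116 (-) for *P4HA1*, and chr3:146161185-146161434 (-) for *PLOD2*. Each window overlaps the gene as annotated in GENCODE, where other transcripts start further upstream. Capitals mark the heat shock letters GAANNTTC or TTCNNGAA in *SERPINH1* and the core of the hypoxia response element, ACGTG or GCGTG on either strand, in the other 3 genes. The windows of *PLOD1* and *P4HA2*, which are also known HIF targets, are not shown, and that of *P4HA2* lacks the core letters.
SERPINH1: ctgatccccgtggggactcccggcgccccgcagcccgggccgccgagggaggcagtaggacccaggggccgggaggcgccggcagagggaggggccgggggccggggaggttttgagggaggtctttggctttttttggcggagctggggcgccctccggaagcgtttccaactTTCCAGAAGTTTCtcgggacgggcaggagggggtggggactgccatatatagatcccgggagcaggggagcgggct
LOX: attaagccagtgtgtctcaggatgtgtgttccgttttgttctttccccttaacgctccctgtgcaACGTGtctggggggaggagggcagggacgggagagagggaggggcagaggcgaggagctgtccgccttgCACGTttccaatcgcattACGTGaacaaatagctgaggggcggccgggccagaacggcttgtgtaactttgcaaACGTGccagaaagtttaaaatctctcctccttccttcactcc
P4HA1: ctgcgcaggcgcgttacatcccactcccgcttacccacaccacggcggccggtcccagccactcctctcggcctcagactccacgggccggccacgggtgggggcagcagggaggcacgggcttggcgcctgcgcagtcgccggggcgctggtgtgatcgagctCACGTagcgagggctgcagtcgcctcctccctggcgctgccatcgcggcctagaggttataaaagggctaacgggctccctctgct
PLOD2: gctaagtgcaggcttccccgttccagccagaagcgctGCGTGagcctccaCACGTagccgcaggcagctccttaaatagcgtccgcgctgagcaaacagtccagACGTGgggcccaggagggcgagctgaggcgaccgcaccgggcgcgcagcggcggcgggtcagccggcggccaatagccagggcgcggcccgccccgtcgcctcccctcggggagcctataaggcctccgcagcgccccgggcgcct

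Of the 10 members, 9 had an entry in the RefSeq promoter table; *LOXL2* had none. The heat shock letters were found in 1 of the 9 windows, that of *SERPINH1*, where TTCNNGAA at 76 to 69 bases before the start and GAANNTTC at 71 to 64 bases before it overlap by their shared GAA. Among all 27305 promoters, 11.7% hold one of these forms in the same 250 bases. The hypoxia core was found in 5 of the 9 windows, against 43.1% of all promoters. It occurred 4 times in *LOX*, 3 times in *PLOD2*, and 2 times in *PLOD1*, while *P4HA1* and *P3H1* held 1 match each. Both *SERPINH1* and *LOXL1* lacked the core letters, as did *P4HA2* and *PLOD3*. CCAAT, the box bound by NF-Y in many promoters, was found on either strand in 3 of the 9 windows, those of *P4HA2*, *PLOD2*, and *LOX*, against 33.03% of all promoters. A match describes the letters and not whether a factor was bound.

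To see which steps of collagen maturation moved with mocetinostat, the members were compared between conditions in edgeR's fit over all 13966 genes tested. *SERPINH1* was the member that fell furthest, to 15.5% of its DMSO level. *LOX*, *LOXL2*, *P4HA2*, and *LOXL1* rose by between 1.57-fold and 2.42-fold, and *PLOD3* fell by a log2 value of 0.97, whereas *P4HA1*, *P3H1*, *PLOD1*, and *PLOD2* did not pass the test. Thus 4 of the 10 members were higher at an adjusted p under 0.05, where 32.9% of all genes tested were higher, and 2 were lower, where 31.4% of all genes were lower. With the further requirement of an absolute log2 fold change over 1, the call used in the study, *LOX* was called higher and *SERPINH1* lower. Such calls were made for 20.2% of all genes in the upward and 8.18% in the downward direction. The median log2 fold change of the 10 members was 0.10, and that of all genes tested was -0.0021.

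**Figure D1:**
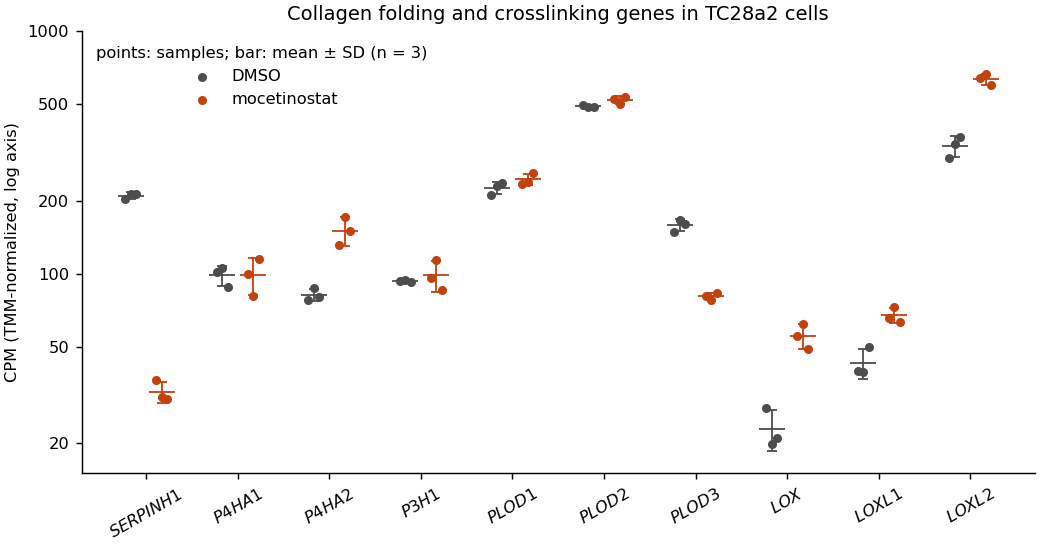
Expression of the 10 members in each sample, in CPM on a log axis; gray points are the 3 DMSO-treated samples, orange points the 3 mocetinostat-treated samples, and bars the mean ± SD. The conditions are furthest apart for *SERPINH1*, at 202.8 to 213.9 CPM with DMSO against 30.3 to 36.3 CPM with mocetinostat, and they overlap for *P4HA1*, *P3H1*, and *PLOD1*.

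*SERPINH1* (ENSG00000149257, chromosome 11 of GRCh38 from 75562056 to 75572783) is the collagen-specific chaperone whose promoter letters are given above. Its reads numbered 2242, 1027, and 1446 across DMSO samples 1, 2, and 3 but 183, 50, and 73 across mocetinostat samples 1, 2, and 3. Normalized for depth by edgeR's TMM factors, these were 202.8, 213.9, and 213.1 CPM with DMSO and 36.3, 31.0, and 30.3 CPM with mocetinostat. The lowest DMSO-treated sample was thus far above the highest mocetinostat-treated sample, and the samples of each condition lay close together. The mean fell from 209.9 ± 6.17 to 32.5 ± 3.29 CPM (SD, n = 3), which was 6.46-fold lower, and the log2 fold change was -2.66 (standard error 0.11). Only 0.193% of the genes tested had a lower log2 fold change. It was called lower under 15 of 15 alternatives in processing, with log2 fold changes from -2.91 to -2.12. The processed pseudogene *SERPINH1P1* held 1 count in 1 DMSO-treated sample and 0 in the other 5 samples.

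By the distance between profiles of centered log2 CPM over the 6 samples, 5 genes lay nearest to *SERPINH1* among 10261 genes with a mean of at least 10 CPM. They were *LRRC41* (root mean square distance 0.069), *HIST1H1B* (0.091), *LINC01444* (0.149), *HIST1H3F* (0.153), and *IGF2BP1* (0.177). *HIST1H1B* and *HIST1H3F* encode replication-dependent histones, and *IGF2BP1* encodes an RNA-binding protein. *LRRC41* was at a mean of 75.0 CPM with DMSO and 11.8 CPM with mocetinostat, and *IGF2BP1* was at 194.9 and 35.6 CPM. All 5 were chosen for this likeness, so their values are a description.

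Prolyl 4-hydroxylases are tetramers of α subunits, which hold the active site, and of the β subunit P4HB. *P4HA1* (ENSG00000122884, chromosome 10 from 73007217 to 73096974), the main α subunit in most cells, was at 101.2, 105.6, and 88.0 CPM across DMSO samples 1, 2, and 3 and at 99.9, 80.6, and 115.2 CPM across mocetinostat samples 1, 2, and 3. These values overlapped, with means of 98.3 ± 9.16 and 98.6 ± 17.4 CPM (SD, n = 3) and a log2 fold change of 0.02 (standard error 0.11). *P4HA2* (ENSG00000072682, chromosome 5 from 132190147 to 132295315), which encodes the other widely expressed α subunit and is prominent in chondrocytes, was at 78.2, 86.8, and 80.2 CPM with DMSO and at 130.6, 171.7, and 149.2 CPM with mocetinostat. Every mocetinostat-treated sample was above every DMSO-treated sample. The mean rose from 81.7 ± 4.54 to 150.5 ± 20.5 CPM (SD, n = 3), or by 0.86 on the log2 scale (standard error 0.10). With *P4HA3*, a further α subunit gene, left out, *P4HA2* therefore took a larger part of the transcripts of the pair. Per kilobase of exons, it made up 19.1%, 20.1%, and 21.8% of the sum of the pair across DMSO samples 1, 2, and 3 and 28.5%, 39.4%, and 28.3% across mocetinostat samples 1, 2, and 3. These shares do not depend on how libraries are scaled, but their level depends on the lengths used: with the longest transcript of each gene, the mean share of *P4HA2* was 34.2% with DMSO and 48.9% with mocetinostat.

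*P3H1* (ENSG00000117385, chromosome 1 from 42746335 to 42767084) encodes the prolyl 3-hydroxylase that works in a complex with CRTAP and cyclophilin B. Its DMSO values were 93.5, 93.7, and 92.1 CPM, and its mocetinostat values were 96.2, 114.0, and 85.4 CPM. The mocetinostat-treated samples lay on either side of the tight DMSO group, with means of 93.1 ± 0.858 and 98.5 ± 14.5 CPM (SD, n = 3) and a log2 fold change of 0.07 (standard error 0.11). Among the alternatives in processing, its log2 fold change and those of *P4HA1*, *PLOD1*, and *PLOD2* took either sign, from -0.23 (*P4HA1*) without an expression filter to 0.64 (*PLOD1*) with each library scaled to *GAPDH*, under which these 4 genes passed the test as higher. These settings moved the median log2 fold change of all genes tested by -0.25 and 0.54, respectively, and *GAPDH* itself was at 3039 CPM with DMSO and 2111 CPM with mocetinostat.

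The 3 lysyl hydroxylases differed among themselves. *PLOD1* (ENSG00000083444, chromosome 1 from 11934205 to 11975538), which encodes the enzyme for helical lysines, was at 211.2, 229.5, and 237.3 CPM across DMSO samples 1, 2, and 3 and at 235.3, 239.2, and 259.4 CPM across mocetinostat samples 1, 2, and 3. The lowest mocetinostat value was under the highest DMSO value, and the log2 fold change was 0.11 (standard error 0.08). *PLOD2* (ENSG00000152952, chromosome 3 from 146035139 to 146163725), which encodes the telopeptide lysyl hydroxylase that directs collagen towards hydroxylysine-derived crosslinks, had the most reads of the 10 members with DMSO. It was at 496.7, 485.8, and 487.8 CPM with DMSO and at 526.8, 498.9, and 537.9 CPM with mocetinostat, so that the values did not overlap, but the means of 490.1 ± 5.77 and 521.2 ± 20.1 CPM (SD, n = 3) were close and the log2 fold change was 0.09 (standard error 0.07). Every mocetinostat value was above every DMSO value in 33.7% of all genes tested, and every mocetinostat value below every DMSO value in 32.8%; among the members this held for 5 and 2 genes. *PLOD3* (ENSG00000106397, chromosome 7 from 101205977 to 101218420), whose product also has glycosyltransferase activity, was at 148.6, 167.0, and 159.6 CPM with DMSO and at 80.5, 78.1, and 82.9 CPM with mocetinostat. It was below the DMSO range in all 3 mocetinostat-treated samples. The mean fell from 158.4 ± 9.24 to 80.5 ± 2.40 CPM (SD, n = 3), which was 1.97-fold lower, and the log2 fold change was -0.97 (standard error 0.10). This lay just short of the threshold of 1 for the call, which it passed under 4 of the 15 alternatives, namely DESeq2 with -1.01, the fit without a filter with -1.22, the fit without mocetinostat replicate 3, and the fit without DMSO replicate 1 with -1.04. *PLOD1* and *PLOD2* passed the test as higher under a stricter filter of 10 counts per sample, with log2 fold changes of 0.19 and 0.17, and *PLOD2* also did so in libraries thinned to the smallest total, with 0.18. The gene *ZNHIT1* on the other strand shares 1.80% of the exonic bases of *PLOD3*. Its highest count was 649 with DMSO and 237 with mocetinostat, against 1643 and 406 for *PLOD3*.

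Summed over the 3 lysyl hydroxylases, the level was 874.5 ± 15.6 CPM with DMSO and 846.3 ± 32.2 CPM with mocetinostat (SD, n = 3). The composition of the family shifted, and it is given per length rather than as parts of this CPM sum. Per kilobase of exons, *PLOD3* made up 26.2%, 27.8%, and 26.5% of the 3 genes across DMSO samples 1, 2, and 3 and 14.99%, 14.8%, and 14.6% across mocetinostat samples 1, 2, and 3. *PLOD1* had the largest share, with means of 40.8% and 47.9%, followed by *PLOD2* with 32.4% and 37.4%. With the length of the longest transcript instead, *PLOD2* had the largest share, at 38.8% with DMSO and 44.5% with mocetinostat, while that of *PLOD3* was 26.0% and 14.3%.

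**Figure D2:**
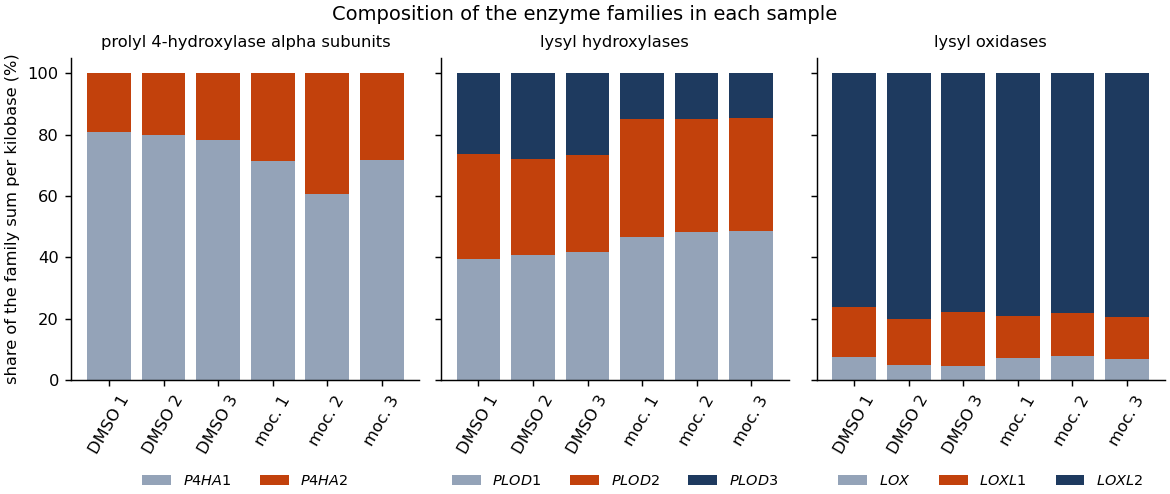
Share of each gene in the sum of the members of its enzyme family, from CPM per kilobase of exons, in each of the 6 samples (moc., mocetinostat). *P4HA3*, *LOXL3*, and *LOXL4* are not in these sums. The part of *PLOD3* among lysyl hydroxylases was between 26.2% and 27.8% with DMSO and between 14.6% and 14.99% with mocetinostat, whereas *LOXL2* held between 76.0% and 80.0% of the 3 lysyl oxidases in every sample.

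The 3 lysyl oxidases among the members, copper enzymes that oxidize lysines and hydroxylysines of collagen and elastin outside the cell, rose together. Their paralogs *LOXL3* and *LOXL4* are given further below. *LOX* (ENSG00000113083, chromosome 5 from 122063195 to 122078413) had 309, 95, and 142 reads across DMSO samples 1, 2, and 3 and 280, 100, and 118 reads across mocetinostat samples 1, 2, and 3, in libraries of smaller totals. These were 28.0, 19.8, and 20.9 CPM with DMSO and 55.5, 62.0, and 48.9 CPM with mocetinostat. DMSO replicate 1 was the highest of its group but still below every mocetinostat-treated sample. The mean rose from 22.9 ± 4.42 to 55.5 ± 6.53 CPM (SD, n = 3), or by 1.24 on the log2 scale (standard error 0.15). The call was lost under 2 of 15 alternatives: without an expression filter the log2 fold change was 0.99, and glmTreat, which tests whether the log2 fold change exceeds 1, did not call it. The gene *SRFBP1* on the other strand shares 2.47% of the exonic bases of *LOX*, and it is not stated whether the counting used strand. The highest count of *SRFBP1* was 357 with DMSO and 156 with mocetinostat, against 309 and 280 for *LOX*.

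*LOXL1* (ENSG00000129038, chromosome 15 from 73925989 to 73952137), whose product is known for its role in elastic fibers, was at 39.4, 39.1, and 49.7 CPM with DMSO and at 65.8, 72.5, and 63.4 CPM with mocetinostat. The conditions did not overlap, with means of 42.8 ± 5.99 and 67.2 ± 4.71 CPM (SD, n = 3) and a log2 fold change of 0.64 (standard error 0.13). Its antisense neighbor *LOXL1-AS1* covers 9.21% of its exons; the highest count of *LOXL1-AS1* was 155 with DMSO and 36 with mocetinostat, against 436 and 332 for *LOXL1*. *LOXL2* (ENSG00000134013, chromosome 8 from 23296897 to 23425328), which encodes a lysyl oxidase with scavenger receptor domains that acts on type 4 collagen among others, was at 300.5, 343.0, and 366.4 CPM with DMSO and at 638.6, 663.1, and 599.7 CPM with mocetinostat. All 3 mocetinostat-treated samples lay well above the DMSO range. The mean rose from 336.6 ± 33.4 to 633.8 ± 32.0 CPM (SD, n = 3), or by 0.91 on the log2 scale (standard error 0.08). *ENTPD4* on the same strand shares 2.01% of the exons of *LOXL2*.

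The summed level of *LOX*, *LOXL1*, and *LOXL2* rose from 402.3 ± 34.5 to 756.5 ± 42.9 CPM (SD, n = 3), or 1.88 times, with every mocetinostat-treated sample above every DMSO-treated sample. Per kilobase, *LOXL2* made up 76.0%, 80.0%, and 77.9% of the 3 genes across DMSO samples 1, 2, and 3 and 79.2%, 78.1%, and 79.3% across mocetinostat samples 1, 2, and 3, so that the conditions overlapped. The share of *LOX* also overlapped, with means of 5.75% and 7.36%. That of *LOXL1* was lower in every mocetinostat-treated sample, at a mean of 16.3% with DMSO and 13.8% with mocetinostat.

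**Figure D3:**
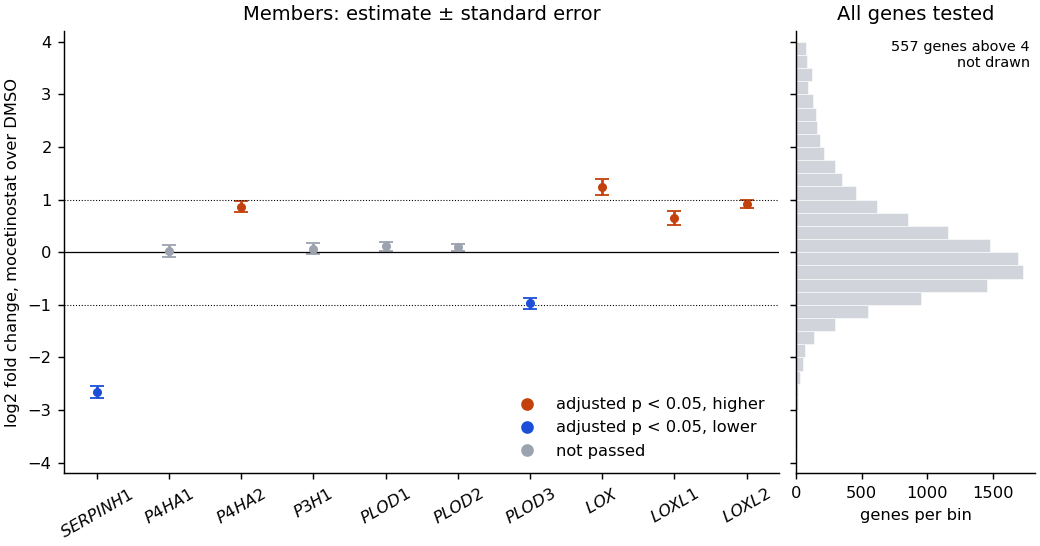
Log2 fold change of each member, mocetinostat over DMSO, with its standard error (left; dotted lines at -1 and 1), beside the histogram of all 13966 genes tested in bins of 0.25 (right; 557 genes above 4 are not drawn). *SERPINH1* lies at -2.66, in the lower tail of all genes, and the other 9 members lie between -0.97 and 1.24.

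Compared per kilobase of exons, the order of the members with DMSO was *LOXL2*, *PLOD1*, *PLOD2*, *SERPINH1*, *P4HA1*, *PLOD3*, *P3H1*, *LOXL1*, *P4HA2*, and *LOX*, from 56.2 ± 5.58 down to 4.09 ± 0.791 CPM per kilobase (SD, n = 3). The samples of *PLOD2* overlapped with those of *SERPINH1*, those of *SERPINH1* with *P4HA1*, those of *P4HA1* with *PLOD3*, and those of *P3H1* with *LOXL1*, so that these neighbors did not differ beyond their spread. With mocetinostat the order was *LOXL2*, *PLOD1*, *PLOD2*, *P4HA1*, *LOXL1*, *P4HA2*, *P3H1*, *PLOD3*, *LOX*, and *SERPINH1*, from 105.9 ± 5.34 down to 5.18 ± 0.524 CPM per kilobase (SD, n = 3). Here *PLOD2* overlapped with *P4HA1*, *P4HA2* with *P3H1*, and *P3H1* with *PLOD3*. *SERPINH1* went from rank 4 at 33.4 ± 0.982 CPM per kilobase with DMSO to rank 10, and *LOX* went from rank 10 to rank 9. Of the summed level per kilobase of the 10 genes, *SERPINH1* made up a mean of 12.7% with DMSO and 1.74% with mocetinostat, and *LOXL2* 21.3% and 35.7%. With the longest transcript as the length, 4 of the 10 members kept their place in either condition, *LOXL2* stayed first in both, and *SERPINH1* was again at rank 4 with DMSO and at rank 10 with mocetinostat, where its samples then overlapped with those of *LOX*.

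**Figure D4:**
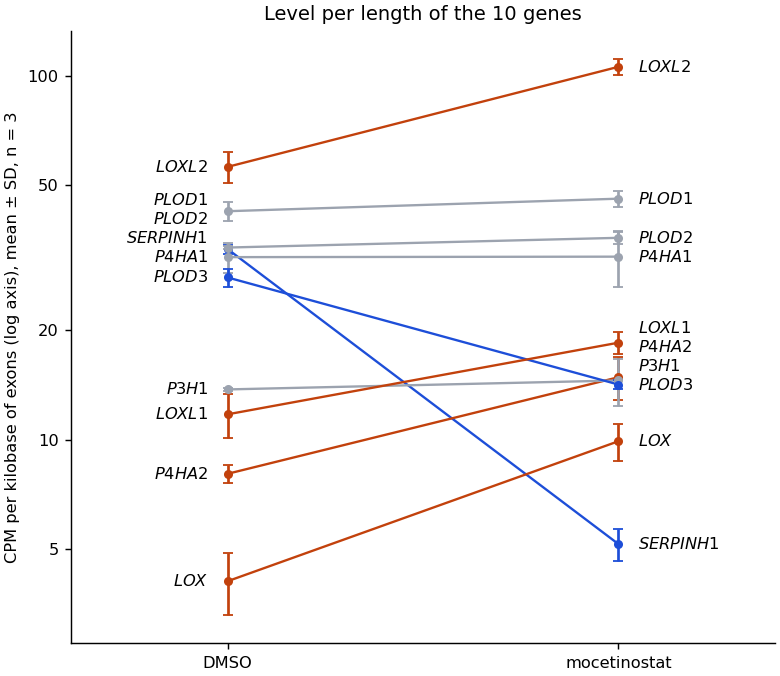
Level of the 10 members in CPM per kilobase of exons (log axis, mean ± SD, n = 3) with DMSO and with mocetinostat; blue lines fell, orange lines rose, and gray lines did not pass the test. *SERPINH1* goes from 33.4 to 5.18 CPM per kilobase, whereas *LOXL2* is highest in both conditions.

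The rest of the collagen maturation pathway was followed in lists taken whole by function, but chosen with earlier results of these data known. Genes named from them were mainly picked by their values in these data. Their adjusted p-values are over all genes tested and take no account of this choice. Over all genes tested 32.9% were higher and 31.4% lower, which are the shares to set beside the counts of each list. Among the 5 remaining paralogs of the member families, 3 were higher, 1 was lower, and 1 did not pass the test. *P3H2*, a prolyl 3-hydroxylase that acts on basement membrane collagen, rose from 69.8 ± 6.40 to 156.0 ± 9.27 CPM (SD, n = 3, log2 fold change 1.17, SE 0.10, edgeR adjusted p = 2.68e-16). *P4HA3*, a further α subunit, rose from 3.62 ± 1.05 to 13.3 ± 4.77 CPM (SD, n = 3, log2 fold change 1.87, SE 0.31, edgeR adjusted p = 3.66e-07). *LOXL4* rose from very low levels, from 6, 5, and 6 reads across the DMSO samples to 19, 15, and 8 reads across the mocetinostat samples (log2 fold change 2.65, SE 0.55, edgeR adjusted p = 2.34e-05). *P3H3*, which works with PLOD1 in the ER, fell from 82.2 ± 18.2 to 47.4 ± 3.14 CPM (SD, n = 3, log2 fold change -0.81, SE 0.13, edgeR adjusted p = 2.67e-07), which was -0.28 with an adjusted p of 0.0951 when libraries were scaled to *GAPDH*. *LOXL3*, named after its values were seen, was at 20.05 ± 5.09 and 16.5 ± 0.678 CPM (SD, n = 3, log2 fold change -0.24, SE 0.21, edgeR adjusted p = 0.309, and 0.29 under *GAPDH* scaling).

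The partners of these enzymes in the ER were followed next. Of 9 genes for partner subunits, isomerases, galactosyltransferases, and an ER channel, 8 were tested, 1 was higher, 2 were lower, and the median log2 fold change was 0.05; under *GAPDH* scaling 7 were higher and 0 lower, and without a filter 0 were higher and 4 lower. *P4HB*, the β subunit of prolyl 4-hydroxylase, was at 767.4 ± 39.8 and 766.8 ± 46.1 CPM (SD, n = 3), with an adjusted p of 0.991 by edgeR. It was named for its role, but after its values were seen, and under *GAPDH* scaling its log2 fold change was 0.53. *CRTAP*, the helper subunit of *P3H1*, fell from 253.3 ± 9.69 to 178.6 ± 4.39 CPM (SD, n = 3, log2 fold change -0.51, SE 0.09, edgeR adjusted p = 4.13e-07), and under *GAPDH* scaling its log2 fold change was 0.02. The other gene that was lower, *COLGALT1*, had a log2 fold change of -0.25 (adjusted p = 0.00321 by edgeR) and was named after its values were seen. Its log2 fold change was 0.28 under *GAPDH* scaling and -0.15 in thinned libraries, the latter with an edgeR adjusted p of 0.108. *FKBP14*, a proline isomerase, was higher by 0.58 on the log2 scale (SE 0.17, edgeR adjusted p = 0.00292), and without mocetinostat replicate 3 it was 0.39 with an adjusted p of 0.0814. It also did not pass with DESeq2 (0.55, adjusted p = 0.0507) or in edgeR's fit without a filter (0.33, adjusted p = 0.185). *COLGALT2* held between 1 and 13 counts per sample and was not tested.

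Of 12 genes for the export of procollagen from the ER, 2 were higher and 4 lower, with a median log2 fold change of -0.14. *KDELR1*, a receptor that returns ER proteins with a C-terminal retention signal, such as SERPINH1, fell from 240.2 ± 16.3 to 155.8 ± 13.4 CPM (SD, n = 3, log2 fold change -0.63, SE 0.09, edgeR adjusted p = 5.11e-09). Its paralog *KDELR3* rose from 16.4 ± 3.92 to 25.1 ± 1.39 CPM (SD, n = 3, log2 fold change 0.61, SE 0.19, edgeR adjusted p = 0.00472), and without DMSO replicate 3 it was 0.42 with an adjusted p of 0.0679. The other genes that passed, named after their values were seen, were *SAR1A* (0.26) on the higher and *SEC23A* (-0.31), *SEC13* (-0.35), and *KLHL12* (-0.35) on the lower side, which all act in COPII vesicles or their enlargement. With 1 sample left out, *SAR1A* no longer passed the test (without DMSO replicate 2 or 3 or mocetinostat replicate 1 or 2, with log2 fold changes from 0.20 to 0.23). Nor did *KLHL12* (without DMSO replicate 3 or mocetinostat replicate 2 or 3, from -0.34 to -0.29) or *SEC23A* (without DMSO replicate 1, -0.19). With libraries scaled to *GAPDH*, 8 genes of this list were higher and 0 lower, and without a filter 0 were higher and 8 lower.

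Outside the cell, the proteinases that trim procollagen changed in opposite directions. Of 9 genes for the processing of procollagen and LOX, 8 were tested, 5 were higher, and 2 were lower. The procollagen N-proteinases *ADAMTS14*, *ADAMTS3*, and *ADAMTS2* rose from low levels, with log2 fold changes of 2.61 (adjusted p = 2.12e-10), 1.82 (adjusted p = 7.01e-07), and 1.13 (adjusted p = 0.00414 by edgeR), respectively. Without mocetinostat replicate 2 that of *ADAMTS2* was 0.74 with an adjusted p of 0.0853. *TLL2*, a tolloid-like proteinase, rose from 0.548 ± 0.225 to 12.7 ± 0.831 CPM (SD, n = 3, log2 fold change 4.42, SE 0.45, edgeR adjusted p = 5.15e-14), with 8, 3, and 2 reads across the DMSO samples. *BMP1*, the main C-proteinase, which also releases the active form of LOX, had a log2 fold change of -0.40 (adjusted p = 0.00433), and *TLL1* one of -0.80 (adjusted p = 0.000467 by edgeR). Under *GAPDH* scaling none of this list was lower, and without mocetinostat replicate 1 *BMP1* was at -0.31 with an adjusted p of 0.0679. In thinned libraries *BMP1* was at -0.26 (edgeR adjusted p = 0.158). *PCOLCE2*, an enhancer of the C-proteinases, was also higher, with a log2 fold change of 0.65, or 0.47 with an adjusted p of 0.0571 without DMSO replicate 3. It and *BMP1* were named after their values were seen, and *PCOLCE*, with between 1 and 20 counts per sample, was not tested.

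The substrates themselves were mixed. Of 11 fibrillar collagen chains, 9 were tested, 5 rose, and 4 fell; with libraries scaled to *GAPDH* 6 were higher and 2 lower. *COL2A1* had a log2 fold change of 3.70, *COL1A2* one of 1.73, and *COL11A2* one of 1.54, each from under 4 CPM with DMSO, and *COL3A1* fell from 528.0 ± 40.7 to 208.3 ± 8.02 CPM (SD, n = 3; adjusted p = 1.10e-24 by edgeR). Abundant chains also rose. *COL5A1* went from 1002 ± 174 to 1814 ± 127 CPM (SD, n = 3, log2 fold change 0.86). *COL5A3* rose by 0.63 on the log2 scale, from 228.3 ± 50.5 CPM with DMSO (SD, n = 3). *COL5A2* (log2 fold change -0.54) and *COL27A1* (-0.96) fell. *COL5A1*, *COL5A2*, *COL5A3*, and *COL27A1* were named after their values were seen. *COL11A1* and *COL24A1* were not tested, with at most 13 and 9 counts per sample. The most abundant chain, *COL1A1*, singled out after its values were seen, was at 4544 ± 483 CPM with DMSO and 3932 ± 194 CPM with mocetinostat (SD, n = 3, log2 fold change -0.21, SE 0.06, edgeR adjusted p = 0.00169). Its samples overlapped between conditions, and its log2 fold change was 0.31 (edgeR adjusted p = 0.00101) under *GAPDH* scaling. It no longer passed the test under the stricter filter (-0.13, edgeR adjusted p = 0.0598) or in thinned libraries (-0.13, edgeR adjusted p = 0.0872). The summed level of the 11 chains overlapped between conditions, at 6467 to 8102 CPM with DMSO and 6838 to 7433 CPM with mocetinostat. This sum is mostly *COL1A1*. Among the 9 tested chains, 5 were higher and 3 lower without overlap between conditions, as were 33.7% and 32.8% of all genes tested. The chaperone *SERPINH1* also did not overlap.

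Lists of heat-shock and hypoxia genes outside collagen maturation were set beside the members, because *SERPINH1* is a textbook HSF1 target and *P4HA1*, *P4HA2*, *PLOD1*, *PLOD2*, *LOX*, and *LOXL2* are known HIF targets. The shares to set beside both lists are again 32.9% higher and 31.4% lower over all genes tested. Of 12 heat-shock genes, 7 were lower, 1 was higher, and 4 did not pass the test, and the median log2 fold change was -0.34; with libraries scaled to *GAPDH* 5 were higher and 3 lower, and the median was 0.20, and without a filter 1 was higher and 10 lower. The lowest was *HSPE1*, a mitochondrial chaperonin, which fell from 20.3 ± 8.13 to 9.34 ± 1.83 CPM (SD, n = 3, log2 fold change -1.21, SE 0.25, edgeR adjusted p = 1.84e-05). The highest was *HSPA4L*, at 1.11 (standard error 0.13, adjusted p = 6.32e-12). None of the 12 was as low as *SERPINH1* at -2.66, and the difference between these genes was not tested.

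Of 18 hypoxia genes, 6 were higher, 5 were lower, and 7 did not pass the test, with a median log2 fold change of 0.03. Under *GAPDH* scaling 12 were higher and 0 lower, and without a filter 6 were higher and 7 lower. The 4 that passed with an increase over a log2 value of 1 were *EGLN3*, a HIF prolyl hydroxylase, at 3.68 (adjusted p = 5.19e-21), *NDRG1* at 2.78 (adjusted p = 1.51e-34), *MXI1* at 1.23 (adjusted p = 7.95e-10), and *PFKFB4* at 1.09 (adjusted p = 3.48e-08 by edgeR). The lowest was the glucose transporter *SLC2A1*, at -0.80 (adjusted p = 1.48e-08), or -0.26 with an adjusted p of 0.0575 under *GAPDH* scaling. Among the members that are known HIF targets, the log2 fold change was 0.02 for *P4HA1*, 0.09 for *PLOD2*, and 0.11 for *PLOD1*. It was 0.86 for *P4HA2*, 0.91 for *LOXL2*, and 1.24 for *LOX*. The core letters were found in the windows of *P4HA1*, *PLOD2*, *PLOD1*, and *LOX* but not in that of *P4HA2*, and *LOXL2* had no window. Whether HIFs had a part in these changes was not tested.

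**Figure D5:**
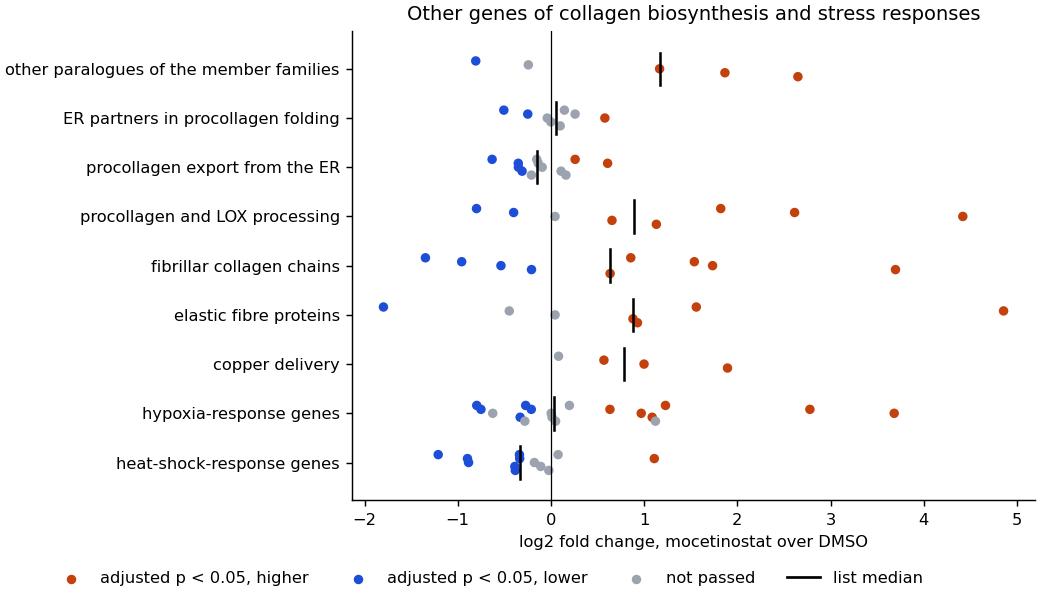
Log2 fold change, mocetinostat over DMSO, of the tested genes in 9 lists; orange points were higher and blue points lower at an adjusted p under 0.05, gray points did not pass, and black lines are list medians. The median is lowest in the heat-shock list, at -0.34, and the ER partners lie within -0.51 and 0.58.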

How the data were processed

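RNA-Seq was analyzed in TC28a2 cells treated with mocetinostat or DMSO (n = 3 per condition). The authors deposited whole raw counts of reads per gene, made with Trim Galore 0.6.4, SortMeRNA 2.1b, STAR 2.6.1d on GRCh38 (Ensembl 98), and featureCounts 1.6.4 in nf-core/rnaseq 1.4.2; the strand setting and the treatment of reads that map to several genes are not stated. Columns were matched to samples by name.

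edgeR 4.0.16 (R 4.3.3) was applied with TMM factors, filterByExpr at a minimum count of 10, and a quasi-likelihood test of treatment alone, with Benjamini-Hochberg adjustment over 13966 genes. The standard error is the unshrunken log2 coefficient divided by the square root of the F statistic. CPM values used the TMM factors, and levels per kilobase used the union of exons in GENCODE 44, which held 99.5% of the genes in the table. Promoter windows were taken from RefSeq and searched on both strands.

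The members and lists were chosen with earlier results of these data known. Genes named were all members, the highest and lowest tested gene of each list, its called genes where there were at most 5, its untested genes, and the 5 profiles nearest to *SERPINH1*. Outside this rule, these genes were named after their values were seen: *LOXL3*, *P4HB*, *COLGALT1*, *SAR1A*, *SEC23A*, *SEC13*, *KLHL12*, *BMP1*, *PCOLCE2*, *COL1A1*, *COL5A1*, *COL5A2*, *COL5A3*, *COL27A1*, *ATP7A*, and *ATOX1*. Pairs of samples of 1 condition differed by more than counting noise (chi-square per degree of freedom 1.91 to 8.20). Samples with the same replicate number did not deviate together (correlation of deviations -0.016 to 0.012). This does not show whether they came from the same experiment. The alternatives, among them DESeq2 1.42.0, are given in the closing section, and the fits were tested on simulated counts.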

Additional observations from a re-analysis of the deposited data

How the results depend on the processing

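Of 150 values for the members under 15 alternatives, 130 kept their direction and their side of the threshold, as did 524 of 607 values for 41 other named genes. *COL5A1*, *COL5A2*, *COL5A3*, and *COL27A1* are not among these 41. Pathway genes here are the 83 tested genes of all lists but the markers, among them 18 hypoxia and 12 heat-shock genes. In the values reported, 30 of them passed as higher and 26 as lower, with 18 called higher and 3 called lower. Scaling to *GAPDH* gave 4425 called higher and 284 called lower over all genes (2827 and 1142 in the values reported), 8 members passing as higher and 4 called higher, 56 pathway genes passing as higher, 5 as lower, 30 called higher, and 0 called lower; *CRTAP*, *BMP1*, *COL1A1*, *COLGALT1*, *KLHL12*, *LOXL3*, *P4HB*, *SEC13*, and *SEC23A* were then at 0.024, 0.13, 0.31, 0.28, 0.19, 0.29, 0.53, 0.18, and 0.23. Without a filter 2120 genes were called lower, 0 members higher, 2 members lower, and 10 pathway genes lower, and *P4HA1*, *P3H1*, *PLOD1*, *PLOD2*, and *SLC31A1* were at -0.23, -0.18, -0.14, -0.16, and -0.17. A minimum of 10 counts per sample gave 1620 called higher and 704 lower. *P4HB*, at -0.0010 in the values reported, was at 0.020 with RLE factors, 0.016 with library size only, 0.077 with that minimum, and 0.087 in thinned libraries. With glmTreat 465 genes, 1 member, and 1 pathway gene were called lower, 0 members and 11 pathway genes higher. In thinned libraries 2 members were called higher and 16 pathway genes passed as lower. DESeq2 called 2 members lower and gave *P4HA1* -0.018. Leaving out 1 sample, 1 to 2 members were called lower (*PLOD3* was added without DMSO replicate 1 or mocetinostat replicate 3), *P4HA1* lay between -0.10 and 0.10, *P3H1* between -0.048 and 0.14, *SLC31A1* between -0.0042 and 0.14, and *P4HB* between -0.063 and 0.035. With the longest transcript, 4 members kept their place in either order. The replicate block gave 2798 genes called higher and 1133 lower and changed no call of a member. The causes were not tested, except that fewer genes enter under a stricter filter.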

Other observations

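Elastic fibers are the other main substrate of the lysyl oxidases. Of 9 genes for elastic fiber proteins, 7 were tested, 4 were higher, and 1 was lower after mocetinostat treatment. Of all genes tested, 32.9% were higher and 31.4% lower. *FBLN5*, a fibulin that brings elastin and LOXL1 together, rose from 0.290 ± 0.251 to 9.38 ± 1.88 CPM (SD, n = 3, log2 fold change 4.86, SE 0.55, edgeR adjusted p = 4.31e-12). Its reads numbered 5, 2, and 0 across the DMSO samples and 48, 12, and 27 across the mocetinostat samples, so that the size of the fold rests on few reads: the log2 fold change was 5.52 without DMSO replicate 1 and 7.24 in thinned libraries. *MFAP2*, a microfibril protein, rose from 4.76 ± 1.35 to 13.99 ± 3.56 CPM (SD, n = 3), or by 1.56 on the log2 scale (adjusted p = 7.79e-06). *MFAP4* had 29, 23, and 27 reads across the DMSO samples and 2, 3, and 4 reads across the mocetinostat samples (log2 fold change -1.80, SE 0.59, edgeR adjusted p = 0.00628), but without mocetinostat replicate 1 it was -1.08 with an adjusted p of 0.167 and with DESeq2 the adjusted p was 0.0712. Elastin itself (*ELN*) held at most 7 counts in a sample and *MFAP5* also at most 7, and neither was tested.

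Lysyl oxidases need copper, which is loaded in the Golgi apparatus. Of 4 genes for copper delivery, 3 were higher and none was lower, where 32.9% of all genes tested were higher and 31.4% lower. The copper pump *ATP7B* rose from 6.47 ± 0.886 to 23.6 ± 4.07 CPM (SD, n = 3, log2 fold change 1.89, SE 0.23, edgeR adjusted p = 4.69e-11). *ATP7A*, the pump that supplies LOX in the secretory pathway, was higher by 1.00 on the log2 scale (SE 0.17), and the chaperone *ATOX1* by 0.57 (SE 0.18). Both were named after their values were seen, and without a filter *ATOX1* was at 0.32 with an edgeR adjusted p of 0.229. The importer *SLC31A1* was at 52.4 ± 5.01 and 56.4 ± 3.97 CPM (SD, n = 3), with an adjusted p of 0.598 by edgeR.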
